A study of Mus musculus with 12 samples.

Results

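The response of Cop1-intact 4T1 cells to interferon gamma (IFNγ) was measured by RNA sequencing. It rests on the 4 of the 12 libraries of the series whose labels name the Rosa26 guide: 2 libraries of cells given vehicle and 2 of cells given IFNγ at 20 ng/ml for 24 hours. 4T1 is a mammary carcinoma line from BALB/c mice that serves as a model of the triple-negative disease, and Rosa26 is a locus often cut as a neutral control. The other 8 libraries are of 4T1 cells with Cop1 sgRNA1 or Cop1 sgRNA2, 2 with vehicle and 2 with IFNγ for each guide. The response of these Cop1-loss cells is described only where it is set beside that of the Rosa26 cells. Their libraries also share the model, and so enter the low-count filter, the scaling and the estimate of spread behind each call. Whether a population was a clone or a pool, and whether replicates were separate cultures, is not given in the sources used here. The p-values therefore measure the spread between replicate libraries, estimated over all 12, which may be technical. In bulk RNA, fewer cells with a transcript and less RNA of it per cell cannot be told apart.

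IFNγ binds a receptor made of the IFNGR1 and IFNGR2 chains, which activate the kinases JAK1 and JAK2. These phosphorylate latent transcription factors, which bind GAS elements in gene promoters and switch on an early set of genes, among them the transcription factor IRF1. IRF1 and complexes that hold STAT2 and IRF9 act at a further element, the ISRE, so the response spreads to antigen presentation, chemokines and cell-autonomous defence. In tumour cells the pathway is best known for restoring MHC class I display and for raising PD-L1.

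The Rosa26 libraries held between 21999229 and 23590854 gene counts. Levels are given as CPM, the usual library-scaled count, on TMM-scaled library sizes, and changes as log2 of IFNγ over vehicle with their standard error. A gene is said to have risen or fallen where edgeR's quasi-likelihood test, run on 11904 genes and adjusted by Benjamini-Hochberg over that whole set, gave p under 0.05. Markers of mammary epithelial cells summed to 3991.9 and 3873.1 CPM with vehicle and to 3191.5 and 3185.7 CPM with IFNγ. Of the 18 leukocyte markers, 8 had no count in any of the 4 libraries, among them Cd3e, Cd8a, Adgre1 and Itgax, and the list summed to 31.1 and 31.1 CPM with vehicle against 39.5 and 40.9 CPM with IFNγ, most of it Cd14 and Cd68. The fibroblast list summed to 28.1 and 29.4 CPM with vehicle and to 18.7 and 19.2 CPM with IFNγ, most of it Pdgfra, with Lum and Thy1 at 0, and the 7 endothelial markers to less than 1 CPM in each library. Cop1, the gene targeted in the other populations, stood at 89.7 and 98.2 CPM with vehicle and at 80.4 and 83.3 CPM with IFNγ in these cells. Its log2 change of -0.20 ± 0.054 passed the test (edgeR adjusted p = 0.00361), but not without Rosa26 vehicle replicate 2 or without Rosa26 IFNγ replicate 1, where the adjusted p reached 0.144.

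IFNγ changed a large share of the transcriptome by small amounts and a much smaller set of genes by large ones. Of the genes tested, 3900 (32.8%) changed, 1972 (16.6%) upward and 1928 (16.2%) downward. The risers had a median log2 change of 0.31 and the fallers of -0.27, against -0.01 over all genes, and 3057 of the 3900 changed by less than 1.5-fold. The large changes were mostly rises: 337 genes rose and 99 fell at least 2-fold, and 178 rose and 28 fell at least 4-fold. A total of 59 genes rose at least 16-fold, or 55 when genes with at most 3 vehicle counts are placed at their counting bound. The genes that rose at least 2-fold held 0.737% and 0.732% of all gene counts in the vehicle libraries and 2.97% in each IFNγ library. The genes that fell at least 2-fold were rare transcripts, with 0.0498% and 0.0496% of the counts before and 0.0209% and 0.0219% after.

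**Figure D1:**
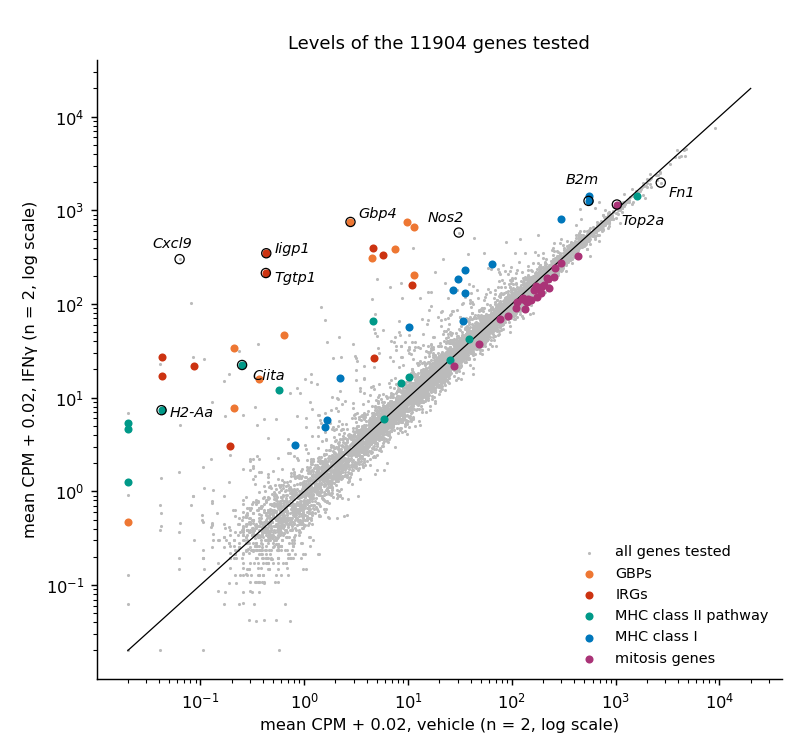
Mean level of each of the 11904 genes tested in Rosa26 cells, vehicle on the horizontal and IFNγ on the vertical axis (CPM plus 0.02, both log scales, n = 2), with 5 gene lists in colour and a line of equal levels. Guanylate-binding proteins, immunity-related GTPases and MHC class II pathway genes climb from near 0, whereas MHC class I genes start high and mitosis genes lie just under the line.

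The largest rises, among genes whose log2 CPM averaged 3 or more over the 4 libraries, were those of Cxcl9, a chemokine for T cells, of the immunity-related GTPases (IRGs) Gm4951, Iigp1, Tgtp2, Tgtp1 and F830016B08Rik, of the related Gm4841 and Gm12185, and of the transcription factor Batf2. They were followed by Mpeg1, a pore-forming protein, Gbp4 and Gbp10, Serpina3f, the surface antigen Ly6a and Apol6. Cxcl9 had 1 count in each vehicle library and 13902 counts over the IFNγ libraries, or 304 and 297 CPM, a ratio of 7001.2 with an exact 95% counting interval of 1937.8 to 57816.8. Gm4841 went from 3 counts over the vehicle libraries to 4731 over the IFNγ libraries, a ratio of 1588.4 (543 to 7705). Batf2 went from 1 count to 1066 (ratio 1073.7, interval 192 to 42448.1). Among genes with no vehicle count at all were Ubd, a ubiquitin-like modifier, with 312 counts after IFNγ and at least 105-fold higher, and H2-DMb1 with 246 counts and at least 82.6-fold higher, against a floor of 3 counts over the group. Such ratios cover counting error only.

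The promoters of 4 listed IRGs are shown because they carry the GAS and the ISRE side by side. The GAS was searched as TTCNNNGAA and the ISRE core as GAAANNGAA on both strands, in windows of 300 bases from 250 before to 50 after each RefSeq transcript start (GRCm38.p6). A GAS and an ISRE match may share bases. The stretches of 60 bases below read 5′ to 3′ on the gene's strand, with both matches in capitals. They come from chr11:48992295-48992354 (minus strand), chr11:49064254-49064313 (minus), chr11:58199491-58199550 (plus) and chr11:58214882-58214941 (plus).
Tgtp1: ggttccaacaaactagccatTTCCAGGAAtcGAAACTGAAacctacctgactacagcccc
Tgtp2: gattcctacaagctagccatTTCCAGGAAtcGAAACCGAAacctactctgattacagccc
Igtp: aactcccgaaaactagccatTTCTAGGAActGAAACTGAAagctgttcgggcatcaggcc
Irgm2: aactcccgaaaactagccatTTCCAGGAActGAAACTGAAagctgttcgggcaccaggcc

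In each of these stretches 2 bases separate the GAS from the ISRE, and the ISRE starts 11 bases after the GAS. The GAS starts 88 bases before the transcript start in Tgtp1, 81 in Tgtp2, 45 in Igtp and 75 in Irgm2. Igtp and Irgm2 shared 58 of 60 bases and Tgtp1 and Tgtp2 shared 46, while Tgtp1 and Igtp shared 38. Among all 32851 windows in the table, 8 (0.0244%) held this spacing. Of the 8, 6 belonged to tested genes, and all 6 rose: Tgtp2, Tgtp1, Gm12185, Igtp and Irgm2 at least 4-fold, and Adar, an RNA-editing enzyme, by 1.01 ± 0.047 on the log2 scale. This spacing was looked at after the promoters had been seen.

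Of the 147 windows of genes that rose at least 4-fold, 12 held both elements at any spacing, among them those of Gbp5 and Gbp7, while others carried 1 element or neither. The windows of Cxcl9 (chr5:92328030-92328329, minus strand) with its ISRE match, of Irf1 (chr11:53769764-53770063, plus) with its GAS match, and of the class II gene H2-Aa (chr17:34287774-34288073, minus) without a match are given for comparison. Irf1 was added because it encodes the factor that acts at the ISRE.
Cxcl9: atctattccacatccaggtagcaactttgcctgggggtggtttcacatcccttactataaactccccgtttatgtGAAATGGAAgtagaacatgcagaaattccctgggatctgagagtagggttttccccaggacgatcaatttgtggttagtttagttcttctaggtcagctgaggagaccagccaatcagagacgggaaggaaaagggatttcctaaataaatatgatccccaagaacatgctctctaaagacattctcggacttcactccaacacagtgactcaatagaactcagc
Irf1: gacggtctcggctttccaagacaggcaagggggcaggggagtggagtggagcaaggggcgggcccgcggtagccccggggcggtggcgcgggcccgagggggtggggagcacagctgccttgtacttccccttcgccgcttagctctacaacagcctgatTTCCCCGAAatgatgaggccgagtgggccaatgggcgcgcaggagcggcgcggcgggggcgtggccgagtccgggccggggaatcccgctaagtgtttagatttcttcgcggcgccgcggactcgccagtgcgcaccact
H2-Aa: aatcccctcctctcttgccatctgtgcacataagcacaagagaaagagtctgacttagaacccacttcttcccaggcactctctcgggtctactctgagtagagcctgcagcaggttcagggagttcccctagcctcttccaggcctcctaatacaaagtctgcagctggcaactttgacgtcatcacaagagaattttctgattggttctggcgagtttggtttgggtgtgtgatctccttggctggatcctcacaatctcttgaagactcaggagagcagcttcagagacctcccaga

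Both elements were more frequent at the genes that rose most. Of these 147 windows, 34.7% held an ISRE match and 19.7% a GAS match, against 8.56% and 8.3% of all windows in the table and 6.37% and 6.77% of windows of tested genes that were not called. Genes that rose less than 2-fold stood near the level of all windows, at 8.3% and 8.24%, and genes that fell at 4.76% and 5.11%. By gene family, 6 of 7 IRG windows and 5 of 6 windows of guanylate-binding proteins held an ISRE match, against 0 of 10 windows of the MHC class II pathway. These are matches of letters in 9432 of the 11904 tested genes, not binding sites, and no binding was measured.

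Within the signalling pathway Stat2 and Stat3 rose and the kinase genes moved little. Of 13 tested receptor, JAK and STAT genes, 4 rose, among them the type I interferon receptor chain Ifnar2 (0.62), and 1 fell. The share called, 38.5%, was near the 32.8% of all genes tested. Stat2, a partner in the ISRE-binding complex, went from 21.5 and 24.1 to 174 and 164 CPM (2.89 ± 0.057), and Stat3 from 75.4 and 72.2 to 152 and 150 CPM (1.03 ± 0.045). For both genes the IFNγ values lay above the vehicle values. Jak1 read 140, 146, 144 and 141 CPM and Jak2 89.5, 90.6, 89.5 and 89.9 CPM, so that their log2 changes were within 0.01 of 0. The fall of Ifngr1, the ligand-binding receptor chain, from 28.1 and 30.8 to 24.1 and 25.4 CPM (-0.25 ± 0.083, edgeR adjusted p = 0.0168) was not called with DESeq2, nor without Rosa26 vehicle replicate 2 or Rosa26 IFNγ replicate 1, with adjusted p up to 0.195.

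Of the 10 feedback inhibitors tested, 4 rose: Socs1 (2.56 ± 0.1), Usp18 (2.53 ± 0.16), Socs3 (1.5 ± 0.07) and the phosphatase gene Ptpn2 (0.31 ± 0.063). Socs1, which blocks JAK activity, stood at 7.98 and 6.94 CPM with vehicle and at 42.5 and 45.5 CPM with IFNγ. Socs2, Cish, Ptpn6, Ptpn11 and Pias1 did not pass the test.

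Among the interferon regulatory factors, 6 of 8 rose and none fell. Irf1 went from 41.6 and 44.9 to 494 and 508 CPM (3.54 ± 0.039), and Irf8, best known from myeloid cells, from 17.6 and 18.9 to 215 and 221 CPM (3.58 ± 0.053). Irf7 rose by the same log2 amount as Irf1, 3.54 ± 0.11, but from 4.74 and 4.63 CPM. Irf9, the DNA-binding part of the ISRE-binding complex, rose by 2.44 ± 0.074 and Irf2 by 0.61 ± 0.072. Irf3 did not pass the test, and the call of Irf5 was lost without Rosa26 vehicle replicate 2 or Rosa26 IFNγ replicate 2, with adjusted p up to 0.117. All 10 further regulators tested rose, with Parp14 (3.81 ± 0.054), Parp9 and its partner Dtx3l, Sp100, Nmi and Ifi35 next to Batf2.

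**Figure D2:**
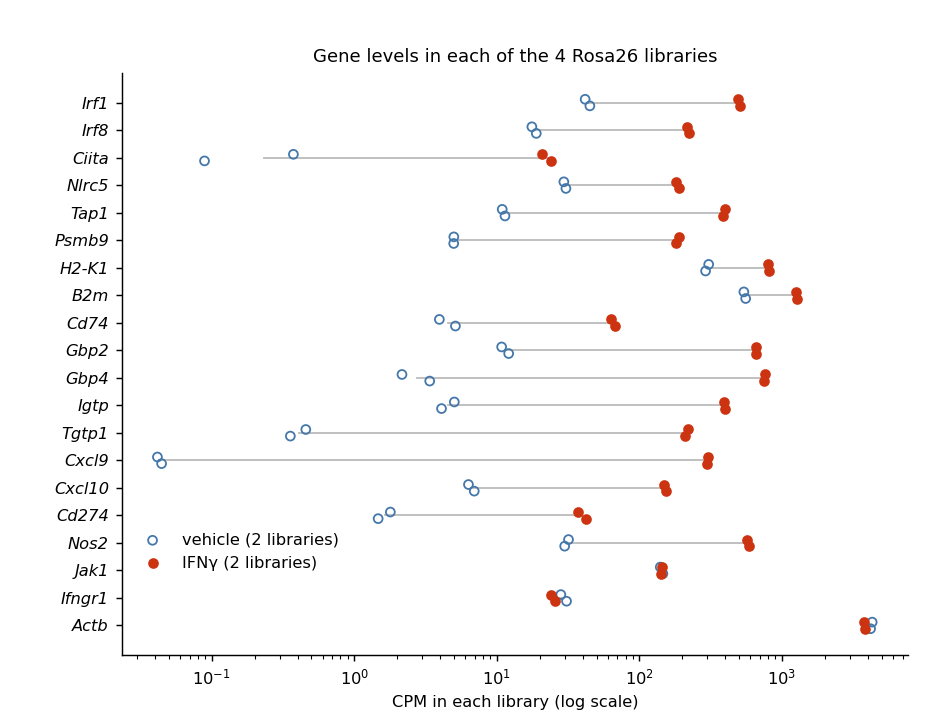
CPM of 20 genes in each of the 4 Rosa26 libraries (log axis; open circles vehicle, filled circles IFNγ, lines between group means). For the risers the groups lie far apart and replicates close together, whereas Jak1 and Ifngr1 differ little and Actb is slightly lower with IFNγ.

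Genes for nearly every step of MHC class I presentation rose, and the general chaperones moved little. All 14 tested class I genes rose, with a median log2 change of 1.91. The light chain B2m (chr2:122147686-122153083) went from 540 and 556 to 1254.5 and 1265.3 CPM (1.2 ± 0.027, edgeR adjusted p = 2.06e-33), and the heavy chains H2-D1 from 562 and 550 to 1427.9 and 1396.4 CPM (1.34 ± 0.025) and H2-K1 from 306 and 291 to 792 and 816 CPM (1.43 ± 0.032). Since these genes were already abundant, B2m and H2-D1 were among the 5 largest rises in CPM although their fold changes were modest. Per kb of exon, B2m reached 1465 CPM, H2-D1 548 and H2-K1 274. The exon length used throughout is that of all annotated exons of a gene merged, not of the transcript expressed. Levels per kb of different genes are therefore only roughly comparable. Nlrc5, the transactivator of class I genes, went from 29.5 and 30.5 to 180 and 188 CPM (2.62 ± 0.056). The non-classical H2-T23 (2.69 ± 0.051) and H2-T24 (2.86 ± 0.18) and the H2-Q family rose more in fold terms. Reads of such similar genes, aligned to a reference of another H2 haplotype than that of BALB/c, may be split between them or lost, which was not tested.

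Of the 8 genes for peptide loading and trimming, 7 rose. The transporter gene Tap1 went from 10.9 and 11.4 to 398 and 388 CPM (5.14 ± 0.052), far more than its partner Tap2, from 21.5 and 20.2 to 81.6 and 81.9 CPM (1.97 ± 0.065). Tapbpl, an editor of class I peptides, rose by 2.52 ± 0.071, the trimming peptidase Erap1 by 1.67 ± 0.056 and tapasin (Tapbp) by 1.61 ± 0.032. The endoplasmic reticulum chaperones had changes near 0: Calr 0.09 ± 0.026, Pdia3 0.09 ± 0.028 and Canx -0.05 ± 0.026, and the calls of Calr and Pdia3 were lost without some Rosa26 libraries (adjusted p up to 0.0524 without Rosa26 vehicle replicate 2 or IFNγ replicate 1 for Calr, and up to 0.24 without either vehicle replicate or IFNγ replicate 1 for Pdia3).

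Transcripts of the inducible proteasome subunits rose far more than those of the constitutive ones. Psmb8, Psmb9 and Psmb10 are catalytic subunits of the immunoproteasome and take the places of Psmb5, Psmb6 and Psmb7. All 5 immunoproteasome genes rose, with a median of 3.0. Psmb9 went from 4.99 and 4.98 to 190 and 180 CPM (5.21 ± 0.071), Psmb10 from 38.9 and 36.9 to 349 and 335 CPM (3.17 ± 0.044) and Psmb8 from 16 and 17.6 to 136 and 133 CPM (3.0 ± 0.063). Psmb5 (-0.08), Psmb6 (0.04) and Psmb7 (0.09) did not pass the test. Per kb of exon, Psmb8 stood at 4.97 CPM against 43.8 for Psmb5 with vehicle and at 39.7 against 41.4 with IFNγ. Psmb9 went from 1.36 to 50.5 CPM per kb beside 76.7 and 79.0 for Psmb6, and Psmb10 from 22.2 to 201 beside 31.0 and 33.0 for Psmb7. Which gene of a pair stands higher per kb depends on the merged exon lengths. The activator subunits Psme1 (1.90 ± 0.04) and Psme2 (1.68 ± 0.036) rose as well. The 25 tested genes of the constitutive proteasome had a median of 0.12, and 15 of them rose, or 9 without Rosa26 vehicle replicate 2, none by more than 0.33.

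MHC class II transcripts appeared from almost none. Ciita, the master transactivator of class II, went from 0.374 and 0.089 to 20.6 and 24.0 CPM (6.53 ± 0.24, edgeR adjusted p = 7.26e-26). H2-Aa had 1 count over the vehicle libraries and 339 over the IFNγ libraries, H2-Eb1 0 and 212, H2-DMb1 0 and 246, and H2-Ab1 26 and 554. The invariant chain gene Cd74 went from 3.95 and 5.12 to 63.1 and 67.2 CPM (3.85 ± 0.09). Of the 13 tested pathway genes 9 rose, and the promoter-binding RFX genes Rfxap and Rfxank and the reductase gene Ifi30 did not pass the test. Ctsl, the gene of the lysosomal protease cathepsin L, fell from 1620.6 and 1592.3 to 1429.8 and 1437.6 CPM (-0.16 ± 0.023). Since it held most of the list's CPM, the list summed to 1716.6 and 1685.3 CPM with vehicle and to 1647.2 and 1665.5 CPM with IFNγ. Measured levels stayed low next to class I: per kb of exon, H2-Aa reached 1.93 and H2-Eb1 2.35 CPM, Cd74 38.8 and H2-K1 274. H2-Aa and H2-Eb1 are also H2 genes, so reads may be lost to the other haplotype of the reference here too, which was not tested. Of the markers of leukocytes, which hold the professional antigen-presenting cells, Ptprc had 5 counts over the vehicle libraries and 0 over the IFNγ libraries, and Itgax was at 0 in all 4. Of the 4 leukocyte markers that could be tested, 1 rose (log2 change 2.13), 1 fell (-1.78, not called with DESeq2) and 2 did not pass the test.

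The GTPase families of cell-autonomous defence, which attack the vacuoles of intracellular microbes, moved most as groups. All 11 guanylate-binding proteins rose, with a median log2 change of 6.12 (5.85 with low-count genes at their bounds), and all 10 tested IRGs, with a median of 7.36 (7.24). Together the guanylate-binding proteins summed to 47.4 and 50 CPM with vehicle and to 3158.2 and 3152.2 CPM with IFNγ, and the IRGs to 27.9 and 25.8 against 1564.8 and 1522.2 CPM. Gbp4 went from 2.16 and 3.38 to 760 and 742 CPM (8.09 ± 0.058), Gbp2b from 9.06 and 10.4 to 741 and 742 CPM (6.25 ± 0.052) and Gbp2 from 10.8 and 12.1 to 653 and 661 CPM (5.85 ± 0.075). Per kb of exon, Gbp2b at 263 and Gbp2 at 261 CPM led the family and were above Gbp4 at 100, an order that depends on the merged exon lengths. Among the IRGs, Igtp went from 5.03 and 4.09 to 391 and 400 CPM (6.43 ± 0.059), Iigp1 from 0.333 and 0.489 to 357 and 339 CPM (9.72 ± 0.09) and Tgtp1 from 0.457 and 0.356 to 218 and 210 CPM (9.01 ± 0.11). Irgm1, a regulator of the other IRGs, was the one most present before treatment, at 11.3 and 10.4 CPM, and rose by 3.89 ± 0.069. Tgtp1 and Tgtp2, and Gbp2 and Gbp2b, are close copies, and how reads that fit both were counted is not given in the sources used here.

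Genes that rose most lay in clusters. Of the 177 genes with a position that rose at least 4-fold, 93 (52.5%) had another such gene within 100 kb, against 370 of 11693 (3.16%) other tested genes. Coordinates are those of GENCODE M21 on GRCm38. On chr17:34143307-34344645, the class II and antigen-processing region, 10 of 10 tested genes rose and 9 of them at least 4-fold, from H2-DMb2 through Psmb9, Tap1 and Psmb8 to H2-Eb1. The IRG region chr11:48861968-49135387 held 7 tested genes, all at least 4-fold up. The guanylate-binding protein genes lay in chr3:142493978-142638008, with 5 of 5, and chr5:105014150-105346472, with 6 of 6. The complement region chr6:124493113-124636085 held C1ra, C1rb, C1rl, C1s1 and C1s2, and the Oas region chr5:120730333-120907521 had 5 of 6 tested genes at least 4-fold up. In contrast, none of the 751 tested genes of chromosome 4 rose 4-fold. Members of such families are similar in sequence, and reads that fit several of them may be split or lost, which was not tested.

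The antiviral genes classically tied to type I interferon rose with IFNγ as well, while interferon genes were not detected at a usable level. Of 38 tested antiviral genes 37 rose, with a median of 2.41, and 32 of them at least 2-fold. Examples were Ifit1 (2.43 ± 0.12), which binds viral RNA, Oas3 (3.17 ± 0.11), a sensor of double-stranded RNA, Rsad2 (3.19 ± 0.16), which blocks viral replication, and Isg15 (1.93 ± 0.086), a ubiquitin-like modifier. Bst2 went from 52.5 and 56.0 to 347 and 350 CPM (2.68 ± 0.045). Ifitm2 did not pass the test (-0.29 ± 0.13, edgeR adjusted p = 0.084), but was called as lower in 4 of 10 alternatives, with adjusted p down to 0.0206: without the low-count filter, with the replicate block, with the Rosa26 libraries alone and without Rosa26 IFNγ replicate 2. The 9 interferon genes listed had 1 count in all over the 4 libraries. Of 13 nucleic acid sensors 11 rose, led by Zbp1, which triggers necroptosis, from 1.33 and 1.56 to 93.9 and 93.9 CPM (6.02 ± 0.11), with smaller rises of Tlr3 (1.26 ± 0.055), Cgas (0.61 ± 0.08) and Tmem173, the gene of STING (0.52 ± 0.085). Mavs and Aim2 did not pass the test.

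**Figure D3:**
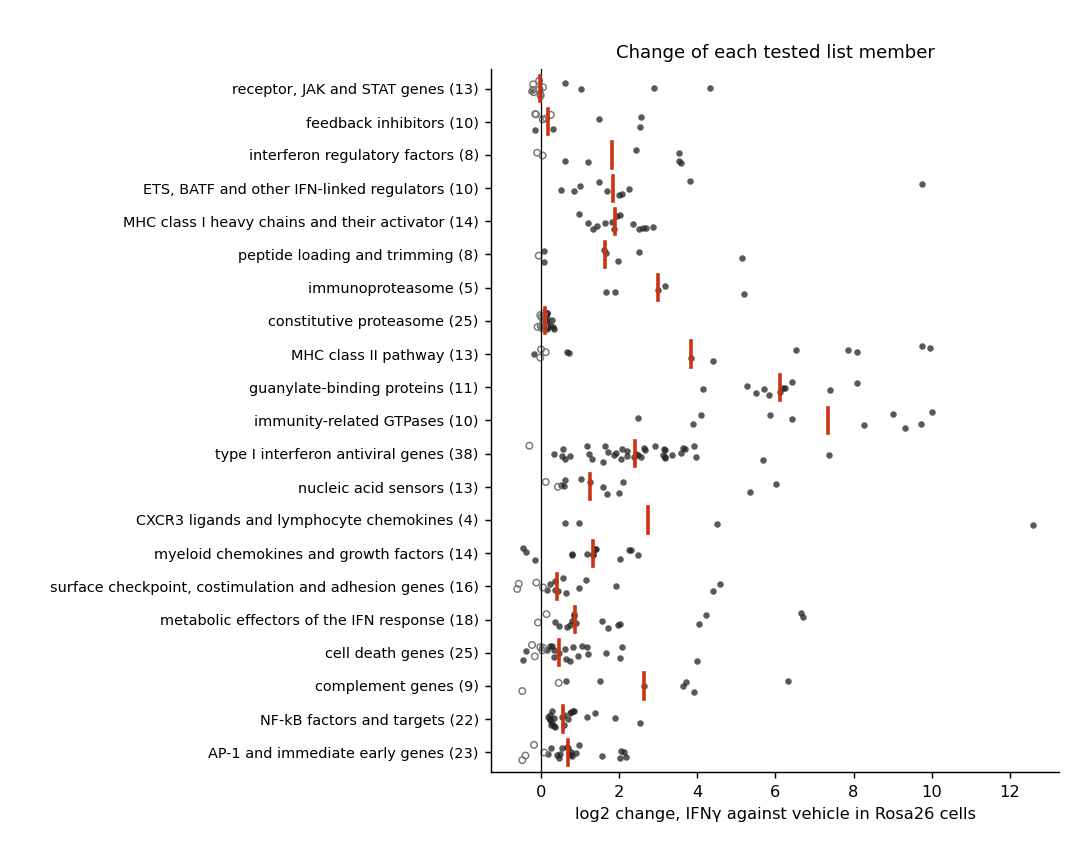
Log2 change with IFNγ of each tested member of 21 gene lists (number of members in brackets), filled where the adjusted p was under 0.05, with the list median as a red bar. The GTPase families have the highest medians, the immunoproteasome stands apart from the constitutive proteasome, and only a few receptor, JAK and STAT genes lie away from 0.

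Chemokine transcripts for lymphocytes and for myeloid cells both rose. Of the CXCR3 ligands and other lymphocyte chemokines tested, all 4 rose: next to Cxcl9, Cxcl10 went from 6.32 and 6.94 to 149 and 153 CPM (4.51 ± 0.08), Ccl5 from 15.3 and 16.1 to 30.5 and 31.0 CPM (0.97 ± 0.1), and Cxcl16 by 0.61 ± 0.036. Among 14 myeloid chemokines and growth factors, 11 rose and 3 fell. Ccl2, which draws monocytes, went from 23.6 and 24.6 to 117 and 115 CPM (2.27 ± 0.16), Cxcl1, which draws neutrophils, from 290 and 301 to 791 and 744 CPM (1.38 ± 0.033), and Csf3 from 467 and 449 to 1036 and 1049.6 CPM (1.19 ± 0.028). Spp1 (-0.44 ± 0.032), Il34 (-0.37 ± 0.089) and Mif (-0.14 ± 0.026) fell. Of 26 cytokine and cytokine receptor genes 12 rose and 2 fell, or 1 fell with any Rosa26 library left out. Il18bp, the decoy of IL-18, went from 2.12 and 1.60 to 24.1 and 28.4 CPM (3.81 ± 0.15), Il1a from 78.1 and 73.3 to 218 and 220 CPM (1.53 ± 0.046), and the cytokine gene Lif from 166 and 165 to 352 and 358 CPM (1.1 ± 0.033). Il15 (1.03 ± 0.16) and its presenting receptor chain Il15ra (2.49 ± 0.11) rose together, the receptor gene Il1r1 fell (-0.82 ± 0.17) and Tgfb1 did not pass the test.

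Of 16 tested surface genes that T and NK cells read, 12 rose, or 8 to 11 with a Rosa26 library left out. Cd274, the gene of PD-L1 (chr19:29367455-29388095), went from 1.79 and 1.47 to 37.2 and 41.9 CPM (4.59 ± 0.14, edgeR adjusted p = 1.32e-28). Icam1, the ligand of the integrin LFA-1, went from 1.79 and 2.49 to 46.4 and 43.4 CPM (4.40 ± 0.13). Tnfrsf14 (1.92 ± 0.25) and Lgals9 (1.15 ± 0.1) rose less, Cd47 by 0.24 ± 0.033, and Cd276 did not pass the test (-0.11 ± 0.05). Of 5 tested NK-cell ligand genes, Clec2d, whose product restrains NK cells, rose (1.56 ± 0.16), and H60b (-0.83 ± 0.19) and Ulbp1 (-0.40 ± 0.1), whose products activate NK cells, fell.

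Metabolic effectors of the interferon response rose in 16 of 18 tested cases. Nos2, the inducible nitric oxide synthase, went from 31.8 and 29.9 to 572 and 587 CPM (4.23 ± 0.041, edgeR adjusted p = 1.59e-47), and Acod1, which makes itaconate, from 4.82 and 4.67 to 79.6 and 78.6 CPM (4.06 ± 0.11). Ido1, which degrades tryptophan, was nearly silent before, at 0 and 0.089 CPM, and reached 4.86 and 5.23 CPM. Ptgs2, the cyclooxygenase COX-2, was already at 633 and 637 CPM and went to 1072.2 and 1066.4 CPM (0.75 ± 0.026). Ass1 and Cyba did not pass the test.

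Of 25 tested cell death genes 18 rose and 2 fell, or 1 fell without Rosa26 vehicle replicate 1 or Rosa26 IFNγ replicate 1. Tnfsf10, the gene of the death ligand TRAIL, went from 0.915 and 0.489 to 12.9 and 9.67 CPM (3.99 ± 0.3). The inflammatory caspases Casp4 (2.08 ± 0.18) and Casp1 (2.02 ± 0.12), the pore-forming Gsdmd (1.2 ± 0.1) and the necroptosis effector Mlkl (1.06 ± 0.037) rose by 2-fold or more. Bax, Bcl2, Mcl1 and Bbc3 did not pass the test. Of 9 tested complement genes 7 rose, among them C4b (6.32 ± 0.36) and the proteases C1s1 (3.71 ± 0.075) and C1ra (2.63 ± 0.1), while C3 was abundant before and rose from 200 and 199 to 315 and 308 CPM (0.64 ± 0.034).

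Genes of NF-κB and of the immediate early response rose too, by smaller amounts. All 22 genes on the NF-κB list rose, with a median of 0.57: Nfkbia, the feedback inhibitor, from 102 and 98.7 to 178 and 184 CPM (0.85 ± 0.043), Tnfaip3 by 0.77 ± 0.033, Nfkbiz by 1.18 ± 0.041 and Lcn2 by 1.39 ± 0.043. Without a Rosa26 library 20 to 22 of them were called. Of 23 AP-1 and immediate early genes 19 rose, or 17 to 19 with a Rosa26 library left out, with a median of 0.69 over the list. Egr1 went from 16.5 and 14.4 to 66.9 and 67.1 CPM (2.12 ± 0.083), Zfp36, which destabilises cytokine mRNAs, from 10.3 and 10.2 to 46.3 and 46.7 CPM (2.18 ± 0.09) and Atf3 by 2.06 ± 0.062. Jun (0.68 ± 0.045) and Junb (0.73 ± 0.032) rose less and Fosb did not pass the test. Of 23 genes of the integrated stress and unfolded protein responses 16 rose, or 12 to 15 with a Rosa26 library left out, with the largest changes for Chac1 (0.89), Ppp1r15a (0.87) and Cebpb (0.78).

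Mitosis genes fell together and replication genes did not. Of 28 mitosis genes 25 fell, with a median of -0.33, and 22 to 25 fell with a Rosa26 library left out. Cdc20, the activator of the anaphase-promoting complex, went from 231 and 227 to 153 and 143 CPM (-0.63 ± 0.036, edgeR adjusted p = 8.98e-19), Plk1 from 136 and 132 to 90.5 and 87.3 CPM (-0.59 ± 0.044), and Cenpf, a kinetochore protein, from 184 and 200 to 123 and 140 CPM (-0.55 ± 0.046). Aurkb and Ttk did not pass the test, and Top2a rose (0.17 ± 0.025). Of 28 DNA replication genes 9 rose, 2 fell and 17 did not pass the test, with a median of 0.07. The share called, 39.3%, was near the 32.8% of all genes tested. Fewer replication genes fell without Rosa26 vehicle replicate 2 or Rosa26 IFNγ replicate 1. Mcm10 rose by 0.30 ± 0.047 and Cdc45 by 0.26 ± 0.052, Mcm6 fell by 0.15 on the log2 scale, and Mcm2 (-0.02), Mcm5 (0.05) and Rrm1 (-0.01) did not pass the test. The cell cycle inhibitor Cdkn1a went from 27.7 and 24.7 to 45.7 and 47.0 CPM (0.82 ± 0.078), while Cdkn1b did not pass the test. With Trp53 (0.45 ± 0.063), its inhibitor Mdm2 (0.43 ± 0.045), Plk2 and Rbl1 it made up the 5 of 14 cell cycle inhibitors and p53 targets that rose. The share of cells in each phase was not measured.

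**Figure D4:**
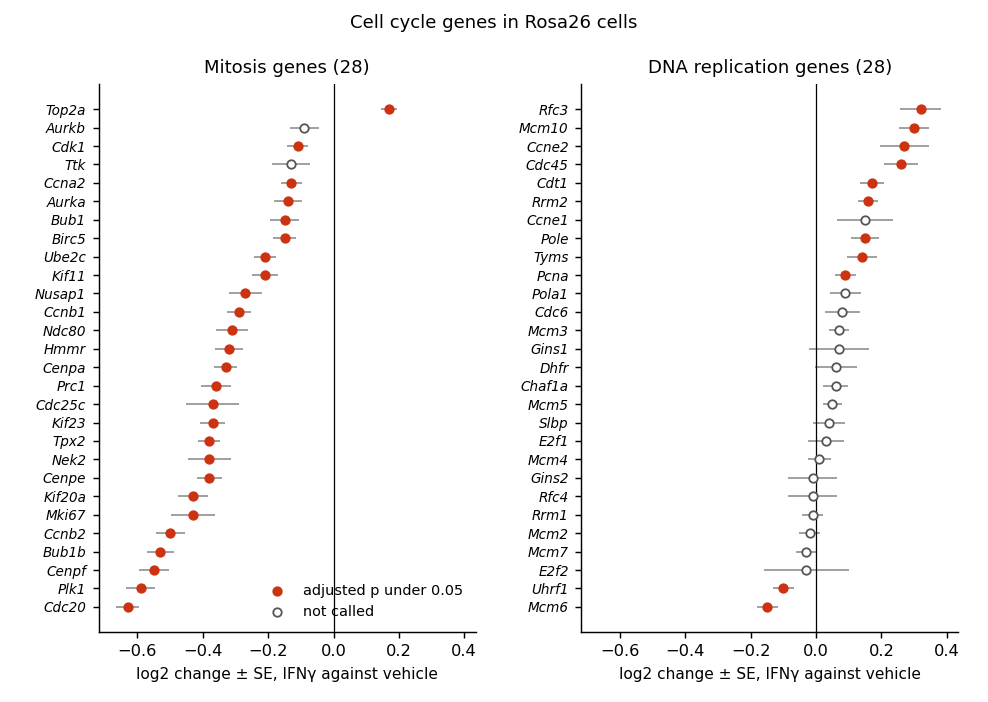
Log2 change with IFNγ ± SE of 28 mitosis genes and 28 DNA replication genes in Rosa26 cells (filled, adjusted p under 0.05). The mitosis genes other than Top2a lie left of 0 and down to -0.63, whereas the replication genes lie between -0.15 and 0.32.

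Among genes whose log2 CPM averaged 3 or more, the largest falls were smaller than the largest rises, and the 12 largest falls ran from -1.37 to -0.99. They were the desmosomal Pkp1 (from 11.6 and 14.6 to 4.61 and 5.49 CPM), Kank3 (from 42.4 and 42.3 to 18.6 and 17.5 CPM), the water channel Aqp5, the receptor Ephb6, the collagens Col6a1 and Col7a1, the adhesion receptor Adgrg3, Espn, Pgap1, the matrix protein Npnt, Eya2 and the chaperone clusterin. Clu, its gene, went from 157 and 162 to 77.6 and 83.2 CPM (-0.99 ± 0.046). Among keratin and junction genes 11 of 24 fell and 8 rose, with a median of -0.08. The share called was 79.2%, against 32.8% of all genes tested. At least 2-fold, 3 of them rose and 1 fell. Krt8 went from a mean of 1092.1 to 729 CPM (-0.58), Krt18 from 851 to 655 (-0.38) and Epcam from 269 to 205 (-0.39). In the other direction, Cldn4 rose by 0.40 and Cldn1 by 1.89. Among mesenchymal and matrix genes 11 of 29 fell and 8 rose (65.5% called), with a median of 0.03. Fn1 went from 2667.5 and 2774.3 to 1932.5 and 2014.3 CPM (-0.46 ± 0.053), and the collagenase gene Mmp13 rose by 1.84.

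The largest falls in CPM were those of abundant genes. Eef1a1, a translation factor, went from 9048.3 and 9021.6 to 7555.2 and 7577.0 CPM (-0.26 ± 0.018), Lgals1 from 4661.8 and 4558.8 to 3822.6 and 3742.3 CPM (-0.29 ± 0.038), and Scd2, a desaturase, from 1931.2 and 1946.7 to 1362.0 and 1359.7 CPM (-0.51 ± 0.023). Fn1 and Actb completed the 5. Of 15 genes often used as references 9 fell and 1 rose, with a median of -0.10, and Actb fell by 0.17 on the log2 scale. Of 23 sterol synthesis genes 9 fell and 1 rose (43.5% called), among the former Dhcr7 (-0.31). Of 33 respiratory chain genes 8 fell, or 5 with DESeq2, and 1 rose (27.3% called). Of all genes tested 32.8% were called. Fewer respiratory chain genes fell with any Rosa26 library left out. All values are relative to the scaled library size, so a change in RNA per cell is not seen.

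Medians of the growth and signalling lists lay between -0.22 and 0.13, and no member rose or fell at least 2-fold by the test. The widest changes, 1.81 in the glycolysis and hypoxia list and -1.6 in the TGF-β, Notch and Wnt list, did not pass it. Called genes were nonetheless more frequent in each list than the 32.8% of all genes tested. Their share was 59.3% for MYC and ribosome biogenesis and 64% for glycolysis and hypoxia. Of 27 genes of MYC and ribosome biogenesis 15 rose and 1 fell, with a median of 0.13: Myc went from 251 and 247 to 303 and 298 CPM (0.27 ± 0.033) and Odc1, which makes polyamines, from 1216.5 and 1205.9 to 1520.2 and 1499.9 CPM (0.32 ± 0.023). Of 25 glycolysis and hypoxia genes 8 rose and 8 fell, with 5 falls left without Rosa26 vehicle replicate 1 or Rosa26 IFNγ replicate 1. The hexokinase gene Hk2 went from 123 and 127 to 212 and 222 CPM (0.8 ± 0.04) and Pfkfb3, a glycolytic regulator, rose by 0.67 ± 0.073, while the hypoxia target Car9 went from 50.9 and 48.4 to 30.4 and 29.4 CPM (-0.73 ± 0.066) and the abundant Pkm fell by 0.14 on the log2 scale. Among 20 output genes of TGF-β, Notch and Wnt signalling 4 rose and 5 fell. The Notch ligand Jag1 went from 66.6 and 63.1 to 35.2 and 35.3 CPM (-0.88 ± 0.062) and the Notch target Hes1 fell by 0.43 on the log2 scale, whereas the BMP targets Id3 (0.71 ± 0.049) and Id1 (0.42 ± 0.063) rose.

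The response was then compared with that of Cop1-loss cells, taken as the mean of the guides, by testing the difference of the log2 changes in 1 model. The difference passed the test for 683 genes (5.74%), with a more positive change in Cop1-loss cells for 402 and a more positive change in Rosa26 cells for 281. Of these genes, 581 also changed in Rosa26 cells, and most had the weaker change in Cop1-loss cells. There, 240 risers had a less positive change and 260 fallers a less negative one. The change was stronger in Cop1-loss cells for 70 risers and 11 fallers. The Rosa26 libraries enter both of these tests. With DESeq2 434 genes passed, 353 without Rosa26 vehicle replicate 2 and 348 without Rosa26 IFNγ replicate 1, and 453 without Rosa26 vehicle replicate 1. The GTPase and the inflammatory lists went in different directions. For 6 of 10 IRGs, 5 of 11 guanylate-binding proteins, 4 of 5 immunoproteasome genes and 4 of 8 peptide loading genes the rise was larger in Cop1-loss cells, and for none of these lists was a member's rise smaller by the test. For 16 of 23 AP-1 and immediate early genes, 11 of 22 NF-κB genes and 6 of 14 myeloid chemokines and growth factors the change was more positive in Rosa26 cells, with 1 of the 14 the other way.

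Among single genes, Egr1 rose by 2.12 in Rosa26 cells and by 0.96 in Cop1-loss cells, a difference of -1.16 ± 0.11 (edgeR adjusted p = 2.3e-10), and Fos by 2.04 against a change of 0.20 (difference -1.83 ± 0.38, edgeR adjusted p = 0.0013). Cxcl1 rose by 1.38 against 0.63 (difference -0.74 ± 0.04) and Irf8 by 3.58 against 2.64 (-0.94 ± 0.07). In the other direction, Irgm1 rose by 3.89 against 4.93 (1.05 ± 0.1) and Cxcl10 by 4.51 against 5.52 (1.01 ± 0.15). For Irf1 (0.06, edgeR adjusted p = 0.554), Cd274 (0.40, 0.393), B2m (0.04, 0.57) and H2-K1 (-0.07, 0.327) the difference did not pass the test. The Rosa26 libraries enter both the response described above and this difference, so the comparisons are not independent.

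**Figure D5:**
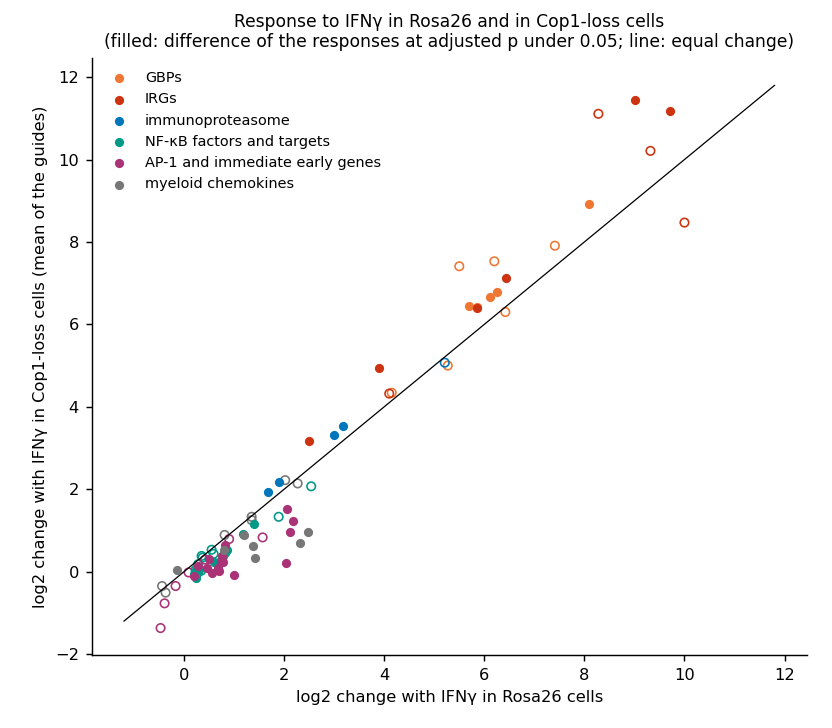
Log2 change with IFNγ in Rosa26 cells (horizontal) and in Cop1-loss cells, mean of the guides (vertical), for the tested members of 6 lists, filled where the difference of the responses had an adjusted p under 0.05; the line marks equal change. The filled GTPase and immunoproteasome genes lie above the line and the filled AP-1 and NF-κB genes below it.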

How the data were processed

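RNA was sequenced from 12 libraries, 2 in each of 6 groups, prepared from total RNA with a TruSeq library kit, per the labels' protocols. The deposited values are whole-number counts per gene and library, not normalized, made by the authors. The submitters' processing notes name STAR 2.4.0, HTSeq, DESeq2 1.10 and the build mm10. The strand setting is, like the annotation and the multi-mapping rule, not given in the sources used here. The row of totals was left out. Of 22298 genes, 5858 had no count, 26 rows carry date-like names and are not named, and columns of other samples numbered 0. Totals per library lay between 19378070 and 32609717.

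The test was that of edgeR 4.0.16 under R 4.3.3 (TMM, filterByExpr with minimum count 10 and total 15, robust quasi-likelihood fit) in 1 model with 6 group means over 12 libraries (6 residual degrees of freedom), which left 11904 genes, with a coefficient of variation between replicates of 3.21%. Replicate counts spread wider than sampling noise alone would give (chi-square per degree of freedom 2.33 to 4.21). On a simulated Rosa26 comparison of 11681 genes, the code recovered 64% of genes changed 1.25-fold, 76% at 1.5-fold and 98% at 2-fold and 4-fold, and 6.15% of its calls were false. The simulation changed only a small share of genes, gave all groups the Rosa26 vehicle levels otherwise, and drew counts from the fitted dispersion. Its rates are therefore not error rates of the real comparison, in which 32.8% of genes were called. Replicate numbers were not used to pair the samples, since same-numbered deviations were hardly correlated (0.0264 in Rosa26 cells). Alternatives were DESeq2 1.42.0, RLE scaling, other low-count filters, a replicate block, a fit to the Rosa26 libraries alone, and leaving out each library. Since reads carry no molecular identifiers, counting intervals and floors leave out other error.

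Named genes are the 15 largest rises and 12 largest falls among called genes whose mean log2 CPM was 3 or more, the 10 highest genes with at most 3 vehicle counts, members of the gene lists, the 5 largest differences from Cop1-loss cells in each direction, the 5 largest changes in CPM each way, and Cop1. The lists, rules and tests were chosen with earlier results of these data known. A list is described by its counts and median and has no test of its own. Its counts are to be read beside the 32.8% of all genes tested that were called. Exon lengths, taken over all annotated exons of a gene merged, and positions come from GENCODE M21 (22237 symbols matched) and promoters from RefSeq. Some listed genes, such as Cxcl11, were not analysed here, and a few results are not reported here.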

Additional observations from a re-analysis of the deposited data

Results flagged for a closer look

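For 10 genes the response to IFNγ differed between Rosa26 and Cop1-loss cells by the largest amounts, among genes whose log2 CPM averaged 3 or more and that changed in Rosa26 cells and passed edgeR's test of the difference itself (log2, Cop1-loss minus Rosa26). The response was more positive in Rosa26 cells for Krt16, a keratin of stressed epithelium (-1.68), Egr1 (-1.16), the MAP kinase phosphatase gene Dusp1 (-1.08), the chemokine gene Ccl20 (-1.08) and Adam33 (-0.99). It was more positive in Cop1-loss cells for Cxcl10 (1.01), Irgm1 (1.05), the class I gene H2-T24 (1.22), Iigp1 (1.46) and Tgtp1 (2.42). In Rosa26 cells alone Krt16 went from 2.74 and 3.52 to 15.4 and 15.3 CPM, Dusp1 from 17.3 and 17.7 to 33.2 and 36.5 CPM, and Adam33 from 0.998 and 0.979 to 17.2 and 14.2 CPM. The difference of Iigp1 had an adjusted p of 0.0456, and was not called with DESeq2 (adjusted p = 0.0509), without the low-count filter or with any one of 9 of the libraries left out, with adjusted p up to 0.402. That of Tgtp1 and of H2-T24 was lost without Rosa26 vehicle replicate 1 (edgeR adjusted p = 0.0794 and 0.0552). That of Adam33 was lost without Rosa26 vehicle replicate 1 or 2 or without Rosa26 IFNγ replicate 1 (up to 0.0928). Tgtp1 and Iigp1 had 19 counts each over the Rosa26 vehicle libraries, so their folds rest on few reads. The size of the Tgtp1 difference also depended on single Cop1-loss vehicle libraries. It was 4.34 without Cop1 sgRNA1 vehicle replicate 1 and 2.08 without Cop1 sgRNA1 vehicle replicate 2.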

How the results depend on the processing

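The number of genes called for IFNγ in Rosa26 cells was 3900 and lay between 2960 and 4056 with a library left out (2960 to 3051 where it was a Rosa26 library, whose lone partner is then assumed to vary like the other groups). It was 3047 with DESeq2, 3900 with RLE size factors, 3852 without and 3877 with a stricter low-count filter, and 3998 with the Rosa26 libraries alone. The replicate block within each population gave 4032 calls, and 815 in place of 683 for the difference between populations. Same-numbered deviations correlated at most at 0.0264, so the numbers were not used as pairs. Whether same-numbered libraries were handled together cannot be told from this. With a minimum of 2-fold, 436 genes were called. The number of genes whose response differed from Cop1-loss cells, 683, was 434 with DESeq2, and 348 to 733 with a library left out. RLE scaling moved the median log2 change of all genes from -0.008 to -0.01. ISRE matches were found in 29.4% and GAS matches in 14.1% of windows of genes that rose at least 2-fold, against 34.7% and 19.7% at 4-fold. Of the 194 named genes called in Rosa26 cells, 189 kept the call in every alternative and 5 lost it in at least 1 (Calr, Cop1, Ifngr1, Irf5 and Pdia3). None of the 194 turned its sign. For the calls of named genes in Rosa26 cells, only Rosa26 libraries were left out in turn. Fits without a Cop1-guide library were not checked for them. Named genes not called but called in at least 1 alternative numbered 3: Cd68, Ifitm2 and Socs2.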

Other observations

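Genes outside the lists also moved, and the rises given here were chosen after their values were seen, from the 10 unlisted genes with the highest IFNγ level among rises of at least 4-fold, which also hold Gm4841. The most abundant was Neurl3, a ubiquitin ligase, from 121 and 117 to 500 and 495 CPM (log2 change 2.06 ± 0.037). Fst, the gene of follistatin, which binds and blocks activin, went from 1.21 and 1.91 to 69.2 and 65.0 CPM (5.43 ± 0.12). The protease inhibitor gene Serpina3g went from 4.70 and 4.23 to 112 and 117 CPM (4.68 ± 0.1), and the nuclear protein gene Ifi202b from 61.9 and 56.9 to 246 and 242 CPM (2.04 ± 0.045). Ly6e, whose product restricts virus entry, rose by 2.33 ± 0.074 beside Ly6a at the same locus on chromosome 15. The predicted genes Gm8995 and Gm4070, on chromosome 7, rose by 2.41 ± 0.036 and 3.0 ± 0.09, and the class I gene H2-Q5 by 2.71 ± 0.11. For Fst the difference from the response of Cop1-loss cells was 0.32 (edgeR adjusted p = 0.484) and for Neurl3 -0.13 (edgeR adjusted p = 0.0935).

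Among unlisted genes that fell by at least 0.9 on the log2 scale, the most abundant besides Clu were Nptx1, a pentraxin, from 153 and 148 to 79.8 and 78.4 CPM (-0.93 ± 0.04), and Slc5a3, a carrier of myo-inositol, from 93.8 and 96.8 to 48.9 and 52.6 CPM (-0.91 ± 0.055). Spry1, an inhibitor of growth factor signalling, fell from 28.3 and 29.8 to 14.6 and 15.9 CPM (-0.93 ± 0.091). Tgfb3, a TGF-β ligand, fell from 18.8 and 17.7 to 8.32 and 10.3 CPM (-0.97 ± 0.12), while Tgfb1 did not pass the test (-0.05 ± 0.057).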
